A study of Mus musculus with 4 samples.

Results

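The BAF and PBAF chromatin remodellers were examined through the transcripts of 10 of their subunits, which were chosen by gene symbol and make up 10 of the 32285 genes counted in single cells of the mouse testis. All 10 were found in the count matrices, each under 1 gene identifier. *Pbrm1*, *Arid2*, *Brd7* and *Phf10* encode subunits found in PBAF and not in canonical BAF, *Arid1a* and *Arid1b* encode alternative BAF-specific subunits, *Smarca2* and *Smarca4* encode the alternative ATPases, and *Smarcb1* and *Smarcd1* encode core subunits. The cells came from testes of C57BL/6N mice at postnatal day 15, from 2 wild-type and 2 *Meioc*-null pups, with 1 testis per pup and 1 littermate of each genotype in each of 2 batches. MEIOC, made in germ cells, is a partner of YTHDC2 and RBM46 around the entry into meiosis, and the null mice lacked it in every cell of the body. Per the methods of the study, mice of both genotypes were also heterozygous for the *Hspa2* tm1Dix allele and homozygous for a *ROSA26*-tdTomato reporter whose floxed stop was intact, so the wild-type animals were wild type for *Meioc* only. Much of the interstitium was discarded during dissociation, which limits what the somatic cells can show.

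SWI/SNF complexes slide or evict nucleosomes with energy from ATP hydrolysis and so open DNA to transcription factors and the transcription machinery. A complex holds 1 ATPase, either SMARCA4 (BRG1) or SMARCA2 (BRM), on a shared core, and is made a BAF by ARID1A or ARID1B or a PBAF by ARID2 together with PBRM1, BRD7 and PHF10. In male germ cells, SMARCA4 is needed for meiotic prophase, and ARID2, PBRM1 and ARID1A have each been tied to spermatocyte development. The rest of the account asks how the 10 transcripts were distributed over germ-cell stages and somatic types, and then how they differed between genotypes.

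In GENCODE vM21 (GRCm38), all 10 are protein-coding genes. *Pbrm1* (ENSMUSG00000042323) lies on chromosome 14 from 31019138 to 31121592 on the plus strand, *Arid2* (ENSMUSG00000033237) on chromosome 15 from 96287518 to 96404992 on the plus strand, and *Smarca4* (ENSMUSG00000032187) on chromosome 9 from 21616169 to 21704230 on the plus strand. *Smarcb1* (ENSMUSG00000000902) lies on chromosome 10 from 75896769 to 75921617 on the minus strand. No counted gene overlapped another member on the same strand. Genes on the opposite strand overlapped *Pbrm1* (*Gnl3* and *Smim4*), *Phf10*, *Smarca2* and *Smarcd1*, and counting by Cell Ranger uses strand. RefSeq promoters (GRCm38.p6) were at hand for 9 of the 10 members, all but *Arid2*, with a second start for *Arid1a*. The 250 bases before the start are shown for the pair of alternative ATPases, whose shares differed between germ cells and soma. They are also shown for *Pbrm1* and *Smarcb1*, which differed between genotypes at the peak of *Stra8*. Capitals mark matches, on either strand, to the E-box CACGTG or to CCTCAG, part of the element associated with the meiotic transcription factor STRA8.
Pbrm1 promoter, chr14:31018888-31019137, plus strand: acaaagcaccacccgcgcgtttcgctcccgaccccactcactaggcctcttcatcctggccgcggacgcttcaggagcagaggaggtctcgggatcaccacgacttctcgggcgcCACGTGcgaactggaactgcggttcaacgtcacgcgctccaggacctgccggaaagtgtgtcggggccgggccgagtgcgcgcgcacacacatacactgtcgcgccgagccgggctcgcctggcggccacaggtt
Smarcb1 promoter, chr10:75921615-75921864, minus strand: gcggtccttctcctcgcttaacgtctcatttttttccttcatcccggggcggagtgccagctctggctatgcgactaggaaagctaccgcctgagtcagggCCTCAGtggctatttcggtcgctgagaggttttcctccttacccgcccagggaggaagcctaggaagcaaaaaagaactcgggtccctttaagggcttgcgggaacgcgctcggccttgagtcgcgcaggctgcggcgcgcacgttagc
Smarca4 promoter, chr9:21615919-21616168, plus strand: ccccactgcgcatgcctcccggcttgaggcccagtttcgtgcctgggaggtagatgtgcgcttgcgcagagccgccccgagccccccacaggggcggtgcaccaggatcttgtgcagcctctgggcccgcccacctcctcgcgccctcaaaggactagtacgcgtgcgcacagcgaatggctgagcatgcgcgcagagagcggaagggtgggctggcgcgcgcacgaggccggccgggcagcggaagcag
Smarca2 promoter, chr19:26604910-26605159, plus strand: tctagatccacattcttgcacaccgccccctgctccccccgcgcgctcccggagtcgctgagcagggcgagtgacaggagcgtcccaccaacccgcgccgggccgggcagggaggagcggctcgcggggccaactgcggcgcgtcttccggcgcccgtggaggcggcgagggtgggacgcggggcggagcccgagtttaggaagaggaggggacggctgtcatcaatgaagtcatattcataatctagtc

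CACGTG was found in 1 of the 10 member promoters, that of *Pbrm1*, where it starts at position -135 from the transcription start, and in 6.02% of the 32851 promoters of the table. CCTCAG was also found in 1, that of *Smarcb1*, at position -149, and in 22.3% of all promoters. The E2F site form GGCGGGA was found in 2, those of *Arid1a* and *Smarcd1*, and in 9.75% of all promoters. None of the 3 motifs was found in the windows of *Smarca4* or *Smarca2*. GENCODE vM21 places the start of *Smarca2* at 26605050, inside the window shown. The median GC content was 69.6% over the member promoters and 52.4% over all promoters.

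After filtering, 5644 and 7505 cells remained for wild type replicates 1 and 2 and 6554 and 6522 for the *Meioc*-null replicates, with medians of 11701.5 to 14420.5 unique molecular identifiers (UMIs) per cell. Libraries shared 7 to 16 kept barcodes per pair, at most 0.283% of the smaller library. Germ cells fell into 10 clusters in a single order, built from wild-type cells without the members among the clustering genes. By markers, cluster 1 was like undifferentiated spermatogonia, clusters 2 to 6 like differentiating spermatogonia, clusters 8 and 9 like early spermatocytes and cluster 10 like pachytene spermatocytes. Cluster 7 held the peak of *Stra8*, at 2140 and 2039 CPM (UMIs per 1000000 UMIs) in wild type, and took no name because its markers of differentiating spermatogonia and of early spermatocytes scored almost alike. Cluster 10 held 259 and 306 wild-type cells and no *Meioc*-null cell, so genotypes were compared in clusters 1 to 9, which held 213 to 1564 cells per library. Somatic cells were like Sertoli cells, peritubular myoid cells, interstitial fibroblasts and Leydig cells, the last with only 20 to 68 cells per library and no test. The Sertoli-like cells joined a shallow cluster of 522 wild-type cells (median 2146.5 UMIs, led by *Defb36* and *Rhox8*) and a deep one of 230 (median 36771.5 UMIs, led by *Clu* and *Sox9*). *Meioc* itself was counted with 637 and 685 CPM in wild-type libraries against 676 and 649 in *Meioc*-null in cluster 7, so its tags at the 3′ end do not check the genotype. Levels are in CPM (UMIs of the gene per 1000000 UMIs of the same library and cluster), as mean ± SD over the 2 libraries of a genotype unless both are given. They are shares of the RNA counted, so less RNA from one gene and more from others cannot be told apart. Differences between stages are descriptions with no test, since the clusters were built from the same cells.

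Among the PBAF-specific subunits, *Arid2*, the DNA-binding ARID subunit that defines PBAF, spanned the widest range. In wild type it stood at 29.1 ± 1.4, 5.51 ± 2.56, 46.6 ± 8.0, 68.8 ± 2.6, 108 ± 0.7, 189.7 ± 6.2 and 262 ± 0.6 in clusters 1, 3, 6, 7, 8, 9 and 10. The lowest and highest clusters differed 47.5-fold, and every step from cluster 5 onward was larger than the spread between libraries. A UMI of *Arid2* was seen in 12.1% of wild-type cells in cluster 3 and in 92.6% in cluster 10, where the cells were also deeper.

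*Pbrm1*, the bromodomain protein that reads acetylated histones in PBAF, was abundant at every stage. It climbed from 143.6 ± 1.2 in cluster 1 through 289 ± 18.2 in cluster 3 to 350.1 ± 1.4 in cluster 5. Wild-type cells then showed a lower plateau of 256 ± 3.5 in cluster 6 and 268 ± 1.7 in cluster 7, a return to 325 ± 3.1 in cluster 9, and 173 ± 21.8 in cluster 10. The values of clusters 3 and 8 overlapped between libraries. *Pbrm1* and *Arid2* therefore had unlike courses, with *Pbrm1* already high where *Arid2* was lowest.

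*Brd7*, a bromodomain subunit, varied least of the 4. It stood at 160.4 ± 10.9 in cluster 1, at 218 ± 2.4 to 263 ± 17.4 in clusters 2 to 7, and at 289.5 ± 21.8, 315 ± 0.1 and 332 ± 35.3 in clusters 8 to 10. The libraries of clusters 2, 3 and 4 overlapped one another, and so did those of clusters 5 and 6. *Phf10*, a PHD-finger subunit, stood at 37.0 ± 1.7 in cluster 1 and 36.6 ± 0.3 in cluster 2, which overlapped, then at 82.5 ± 5.4, 67.9 ± 1.15, 95.7 ± 0.6 and 210.1 ± 30.1 in clusters 6, 8, 9 and 10. Of the 4 PBAF-specific transcripts, *Arid2* and *Phf10* thus had their highest wild-type level in cluster 10 and *Pbrm1* in cluster 5, whereas clusters 9 and 10 overlapped for *Brd7*.

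The BAF-specific subunits had courses unlike each other. *Arid1a*, the most common ARID subunit of BAF, stood at 88.4 ± 7.5, 42.0 ± 3.0, 125.6 ± 0.45, 76.9 ± 16.3 and 113 ± 17.7 in clusters 1, 4, 7, 8 and 10. Clusters 7, 9 and 10 were the highest, and cluster 7 did not differ from cluster 10 beyond the spread. *Arid1b*, its alternative, was a low-level transcript in germ cells, at 13.5 ± 1.1, 27.3 ± 0.7, 3.01 ± 1.26 and 5.14 ± 0.13 in clusters 1, 6, 8 and 10. Its highest mean was that of cluster 6. Both BAF-specific transcripts were thus lower in cluster 8 than in clusters 7 and 9, the stage at which *Arid2* first passed 100 CPM.

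The shares of the 2 ATPases differed between germ cells and soma. *Smarca4* stood at 229.5 ± 37.6, 120.04 ± 15.5, 217 ± 17.5, 371 ± 7.8 and 206 ± 8.2 in clusters 1, 6, 7, 8 and 10. Cluster 8 stood above every other cluster in both wild-type libraries. *Smarca2* stood at 32.3 ± 2.6, 12.6 ± 0.7, 3.43 ± 1.48 and 3.01 ± 1.26 in clusters 1, 5, 7 and 8. Its 2 wild-type libraries differed in cluster 10, at 22.6 and 6.23. Levels of a few CPM can come from free RNA of other cells, whose part was not tested. *Smarca4* was higher in batch 1 than in batch 2 in clusters 1 to 6 of both genotypes, for example 256 against 203 in wild type and 278 against 213 in *Meioc*-null in cluster 1.

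Of the core subunits, *Smarcb1*, which anchors the complex to the nucleosome, dipped at the start of meiosis. It lay between 78.0 ± 1.4 and 104.9 ± 1.4 in clusters 1 to 6, then at 33.6 ± 3.5, 25.8 ± 3.5, 84.2 ± 11.1 and 147 ± 12.6 in clusters 7, 8, 9 and 10. The dip in clusters 7 and 8 lay below every other cluster in both wild-type libraries. *Smarcd1*, a scaffold subunit that contacts transcription factors, was the flattest member, from 98.9 ± 15.8 in cluster 8 to 148 ± 18.8 in cluster 5, a 1.5-fold range, and most neighbouring clusters overlapped. In all 10 clusters of wild type, *Smarcd1* was higher in batch 2 than in batch 1, for example 147 against 119 in cluster 2. The next flattest was *Brd7*, with a 2.07-fold range of the means and 1.83-fold in wild type replicate 1.

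**Figure D1:**
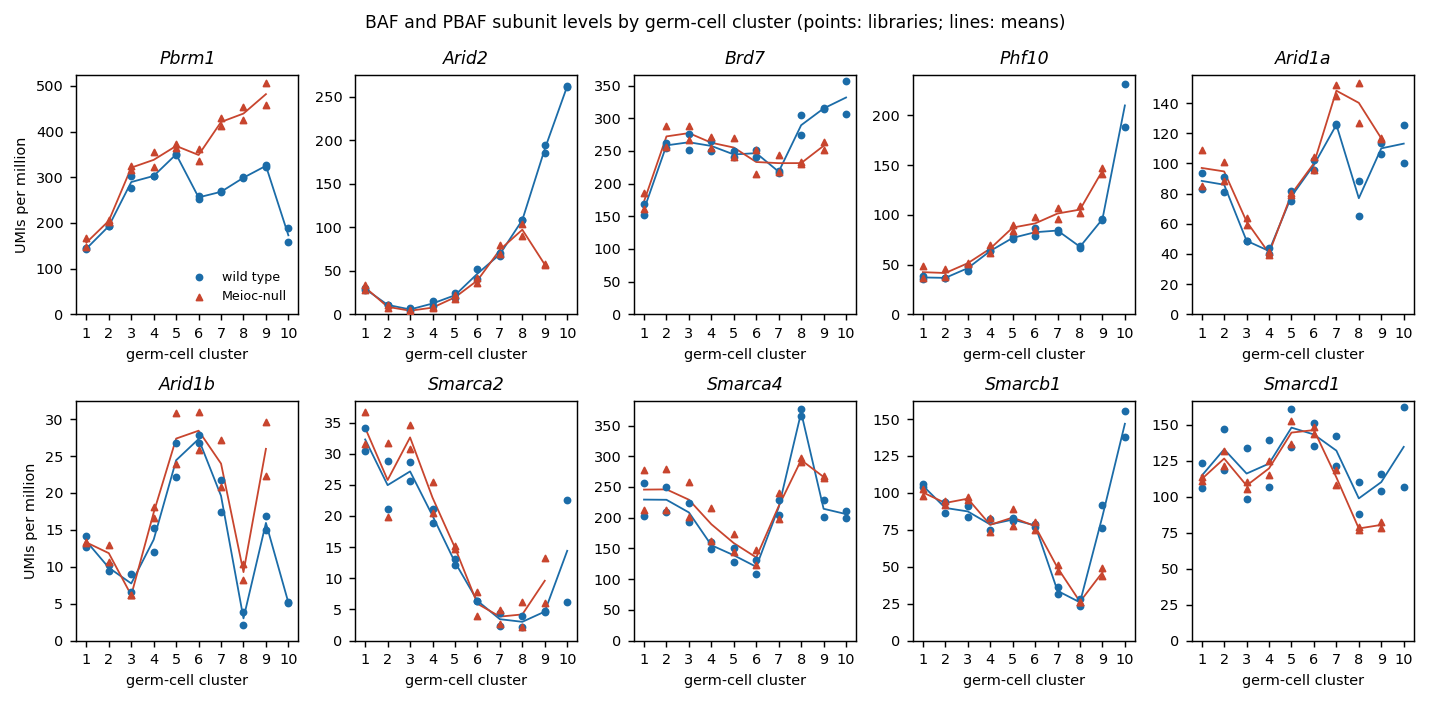
Levels of the 10 subunits (vertical axis, CPM, from 0) in germ-cell clusters 1 to 10 (horizontal axis). Points are libraries, 2 wild type (circles) and 2 *Meioc*-null (triangles), and lines join the means. *Arid2* climbs to 262 in cluster 10 in wild type, and *Pbrm1* is higher in *Meioc*-null from cluster 6 to cluster 9.

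In somatic cells the order of the ATPases was the reverse of that in germ cells. *Smarca2* stood at 259.8 ± 35.5 in Sertoli-like cells, 132 ± 17.7 in myoid-like cells, 137 ± 0.9 in fibroblast-like cells and 132 ± 11.4 in Leydig-like cells of wild type, above every germ-cell cluster. *Smarca4* stood at 121.02 ± 0.3, 44.4 ± 1.3, 43.6 ± 5.7 and 68.6 ± 18.2 in the same types. Sertoli-like cells were the highest of the 4 types for both, and their *Smarca4* overlapped that of germ-cell cluster 6, at 120.04 ± 15.5. They also had the most germ-cell marker UMIs, summing to 204 CPM in both wild-type libraries, against 55.1 to 113 in the other 3 types. The part of germ-cell RNA in their *Smarca4* was not tested. *Arid1b* was also higher in all 4 somatic types, at 49.9 ± 1.3 to 84.8 ± 9.3, than in any germ-cell cluster. *Brd7* was lower in all 4 types, at 68.1 ± 4.0 to 114.5 ± 13.3, than in any germ-cell cluster, and *Phf10*, at 27.1 ± 6.1 to 38.1 ± 2.8, was lower than in clusters 3 to 10. *Arid2* stood at 34.3 ± 2.4 to 68.4 ± 15.4, within its germ-cell range, and *Pbrm1* at 132.6 ± 29.3 to 184.9 ± 25.6, below its mean in cluster 2. *Smarcd1* was lowest in myoid-like and fibroblast-like cells, at 30.2 ± 6.3 and 32.8 ± 6.2, which overlapped. *Smarcb1* lay between 60.7 ± 1.9 in Leydig-like and 86.6 ± 2.7 in Sertoli-like cells.

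**Figure D2:**
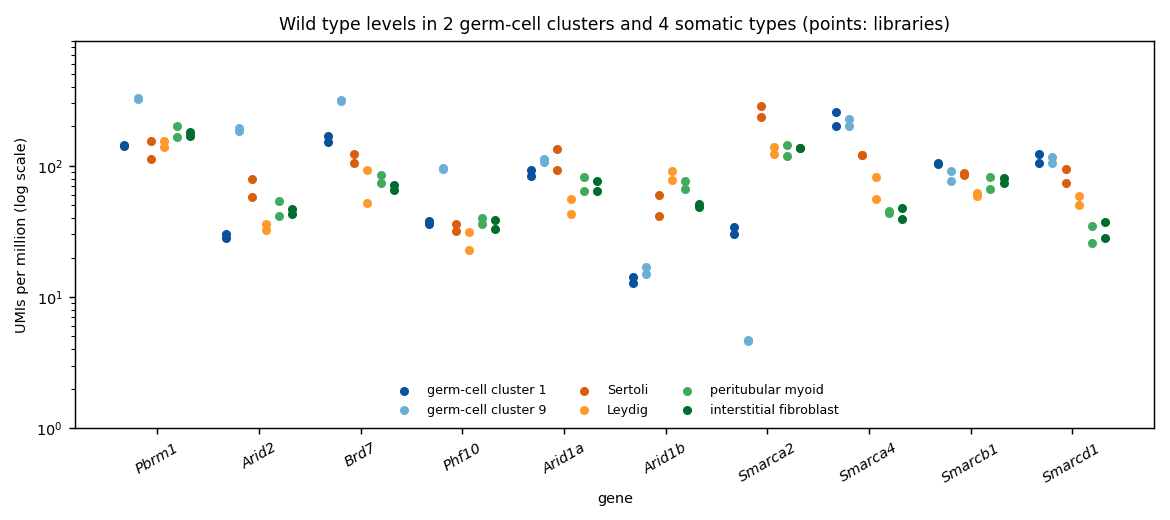
Wild-type levels of the 10 subunits (vertical axis, CPM, log scale) by gene, in germ-cell clusters 1 and 9 and in 4 somatic types, 1 point per library. *Smarca2* and *Arid1b* are higher in each somatic type than in both germ-cell clusters, and *Smarca4* is lower.

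The subunit transcripts were also compared by ratios within a library, which do not measure the complexes themselves. The summed UMIs of the 4 PBAF-specific genes were divided by those of *Arid1a* plus *Arid1b*. In wild-type clusters 1, 3, 4, 7, 8, 9 and 10 the ratio was 3.64 ± 0.19, 10.7 ± 0.82, 11.5 ± 1.01, 4.40 ± 0.12, 9.83 ± 2.44, 7.35 ± 0.24 and 8.33 ± 1.03. The ratio was 2.14 ± 0.49 to 2.70 ± 0.19 in the 4 somatic types, below every germ-cell cluster. Capture differs between transcripts, so the size of the ratio cannot be read. Its changes from cluster to cluster also depend on capture, which weights genes of unlike course within each sum. The wild-type values of cluster 8, 8.11 and 11.6, overlapped those of cluster 3 (10.1 and 11.3), cluster 4 (12.2 and 10.8) and cluster 10 (9.06 and 7.61). In clusters 3 and 4 *Arid1a* was low and *Pbrm1* high, whereas in cluster 8 *Arid1a* was low and *Arid2* was on its climb. In wild-type cluster 3, *Pbrm1* and *Brd7* made up most of the PBAF-specific sum of 605 CPM, at 289 and 263. *Arid2* stood at 5.51 there, its lowest level, so a high ratio did not go with high *Arid2*. The share of *Arid2* in the UMIs of the 3 ARID genes was 8.77% ± 3.55, 32.2% ± 1.34, 57.8% ± 5.54 and 69.0% ± 3.19 in clusters 3, 7, 8 and 10 in wild type. In *Meioc*-null cells this share was 30.0% ± 0.81, 39.4% ± 0.76 and 28.6% ± 0.88 in clusters 7, 8 and 9, against 60.1% ± 1.48 in wild-type cluster 9. The PBAF over BAF ratio of *Meioc*-null cells in cluster 8 was 5.28 and 6.53, below both wild-type values of 8.11 and 11.6. It was above them in cluster 6, at 5.58 and 5.50 against 4.91 and 5.09, and in cluster 7, at 4.81 and 4.81 against 4.49 and 4.32. These ratios were not tested between genotypes.

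*Smarca4* made up 87.6% ± 0.91 of the UMIs of the 2 ATPases in wild-type cluster 1, 94.9% ± 0.57 in cluster 6 and 99.2% ± 0.32 in cluster 8. Its share was 31.9% ± 2.93 in Sertoli-like cells, 25.3% ± 3.09 in myoid-like cells, 24.1% ± 2.29 in fibroblast-like cells and 33.9% ± 4.08 in Leydig-like cells. *Meioc*-null values lay close, at 87.7% ± 0.86 in cluster 1, 98.6% ± 0.91 in cluster 8 and 31.7% ± 0.06 in Sertoli-like cells. Among the BAF-specific pair, *Arid1a* made up 86.8% ± 0.07 in wild-type cluster 1 and 96.3% ± 0.77 in cluster 8. In wild-type soma it made up 69.1% ± 0.12 in Sertoli-like, 58.5% ± 3.61 in fibroblast-like and 50.5% ± 1.77 in myoid-like cells. In Leydig-like cells it made up 36.7% ± 1.57, so *Arid1b* was the larger part there.

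**Figure D3:**
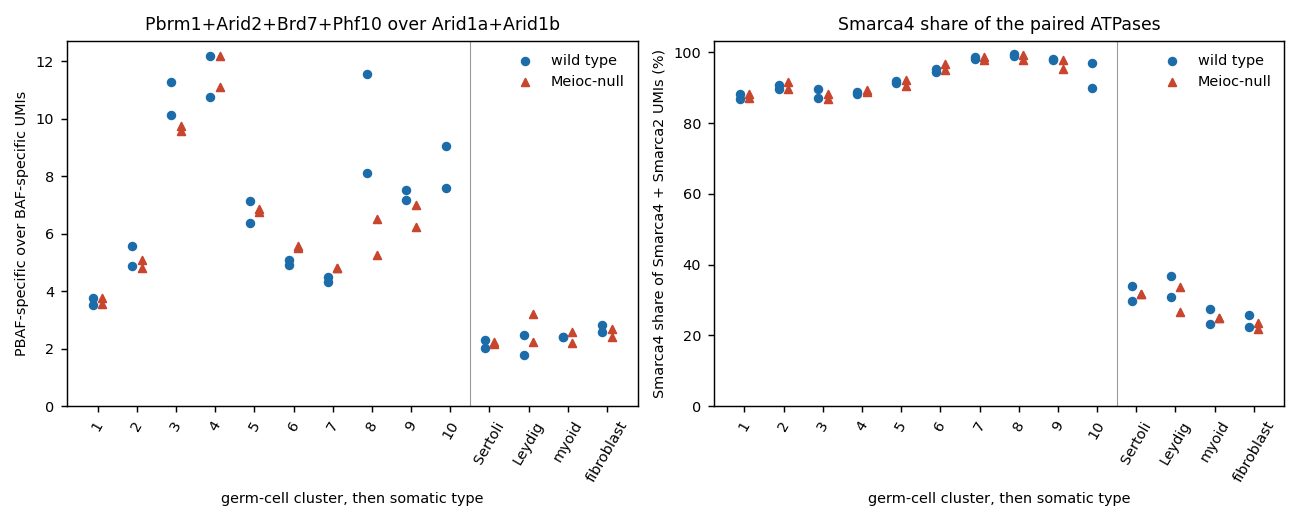
Left, summed UMIs of *Pbrm1*, *Arid2*, *Brd7* and *Phf10* over those of *Arid1a* and *Arid1b*. Right, percent of *Smarca4* in the UMIs of *Smarca4* and *Smarca2*. The horizontal axis gives germ-cell clusters 1 to 10 and 4 somatic types, with 1 point per library. The wild-type mean is highest in clusters 3 and 4, at 10.7 and 11.5, and the *Smarca4* share is over 80 in every germ-cell cluster and under 40 in every somatic type.

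The genes with the most similar wild-type course were found by Pearson correlation of mean log2 levels over the 10 clusters, among 9007 genes, as a description with no test. For *Arid2* these were *Inafm2*, *Dad1* and *Apopt1* (r of 0.99, 0.99 and 0.98). For *Phf10* they were *Gkap1*, *Emc4* and *Strn4* (0.99, 0.99 and 0.98), and for *Pbrm1* they were *Ppig*, *Ipo7* and *Itprid2* (0.97, 0.95 and 0.95). For *Brd7* they were *Zfp131*, *Hnrnpm* and *Usp20* (0.95, 0.93 and 0.93). For *Arid1a* they were *Cenpo*, *Gcn1* and *Vps26a* (0.96, 0.94 and 0.91), and for *Arid1b* they were *Fndc3b*, *Dvl3* and *Galnt7* (0.93, 0.90 and 0.90). No member was among the 3 nearest genes of these 6 members, and the other members were not searched. The most alike pairs of members were *Arid2* with *Phf10* (0.78), *Arid2* with *Arid1a* (0.73) and *Smarca2* with *Smarcb1* (0.72). *Arid1a* was thus nearer to *Arid2* than *Brd7* (0.41) or *Pbrm1* (-0.08) was, and its r with *Arid1b* was 0.17. The most opposite pairs were *Arid1b* with *Smarca4* (-0.79) and *Smarca4* with *Smarcd1* (-0.79). The points share cells, libraries and depth, and with 10 clusters high correlations are easily reached.

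Before the peak of *Stra8*, no member passed the main test between genotypes, which had no term for the littermate pair. With the pair as a block, *Pbrm1* passed in cluster 6, as given below. A gene was called where edgeR's quasi-likelihood test gave an adjusted p under 0.05 and the log2 fold change (wild type over *Meioc*-null) exceeded 0.1 in size. In clusters 1 to 6, 0 of the 10, 10, 8, 9, 9 and 9 members tested were called, where 0%, 0.0117%, 0.0256%, 0%, 0% and 1.32% of all genes tested were called. At an unadjusted p under 0.05, the members counted were *Arid1a* in cluster 3 and *Pbrm1* in cluster 6. DESeq2 also called 0 members in these clusters, with 1 member at an unadjusted p under 0.05, in cluster 6. In Sertoli-like, myoid-like and fibroblast-like cells, all 10 members were tested and 0 were called by edgeR or DESeq2, with 0 at an unadjusted p under 0.05 by either, where 0.308%, 0.0953% and 0.0226% of all genes were called. Log2 fold changes of members lay between -0.20 and 0.28 in the 3 types. Most members stood close between genotypes, as with *Smarcb1* at 106 and 104 in wild type against 103 and 97.8 in *Meioc*-null in cluster 1.

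*Pbrm1* had the greatest difference before the peak among members that passed the limit on detection. In cluster 6 it stood at 258 and 253 in wild type and at 362 and 335 in *Meioc*-null, with no overlap, a log2 fold change of -0.42 (SE 0.13, edgeR adjusted p = 0.118). Stage markers also differed between genotypes in cluster 6, as given below. Libraries of the same littermate pair, which is also the batch, shared deviations. With the pair as a block *Pbrm1* was called in cluster 6 (edgeR adjusted p = 0.000505), in a fit that left little replication. The difference of its effect from that in cluster 1 was called with the animal as a block (edgeR adjusted p = 0.0097) but not with the pair (0.131). The study listed *Pbrm1* among transcripts bound by MEIOC, YTHDC2 and RBM46 in other data. In these samples it also reported *Pbrm1* as lowered by MEIOC in late spermatogonia and/or preleptotene cells in G1, by a test over cells. The difference seen here is therefore not independent evidence.

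From cluster 7 onward, members differed in both directions. In cluster 7, 2 of 8 members tested were called (26.1% of all genes), in cluster 8 it was 6 of 8 (47.6% of all genes), and in cluster 9 it was 8 of 9 (66.4% of all genes). Of the calls, 0 were higher in wild type in cluster 7, where 10.4% of all genes were, against 3 in cluster 8 (22.1%) and 4 in cluster 9 (32.8%). The other 2, 3 and 4 were higher in *Meioc*-null, as were 15.7%, 25.5% and 33.6% of all genes. The calls include *Arid1b* in cluster 9, which passed the limit on detection through *Meioc*-null only. All 16 calls had the same sign in both batches, which hold the same libraries that gave the calls and so are no independent check. The median size of the members' log2 fold changes was 0.20, 0.38 and 0.52 in clusters 7, 8 and 9, beside 0.19, 0.31 and 0.47 over all genes tested. The members' share of calls in cluster 7 was that of all genes, and with at most 9 members tested the shares in clusters 8 and 9 set nothing apart.

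The genotype effect was also set against that in cluster 1 of the same animals, as an interaction in edgeR with the animal as a block. Of the 10 members, it differed (edgeR adjusted p under 0.05) for 1 in cluster 6 (*Pbrm1*), 3 in cluster 7, 6 in cluster 8 and 8 in cluster 9, where 4.96%, 23.8%, 35.8% and 57.2% of all genes did. These include *Arid1b* in cluster 8 and *Smarca2* in cluster 9, which were under the limit on detection there and entered the fit through cluster 1.

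**Figure D4:**
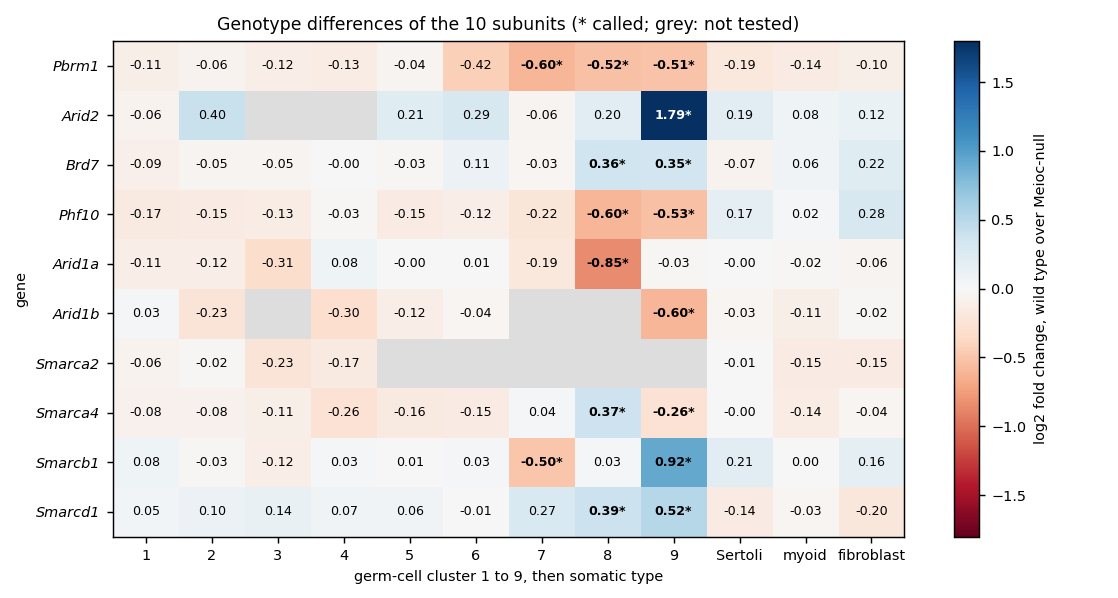
Log2 fold change of wild type over *Meioc*-null (colour and printed value) for the 10 subunits (rows) in germ-cell clusters 1 to 9 and 3 somatic types (columns). Asterisks mark calls (edgeR adjusted p under 0.05), and grey cells were not tested. The 16 calls all lie in clusters 7 to 9, with the greatest at 1.79 for *Arid2* in cluster 9.

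Cells placed in 1 cluster were not alike in stage markers between genotypes. *Meioc*-null cells were placed in clusters built from wild type, so a state found only in *Meioc*-null had no cluster of its own. In cluster 6 the early spermatocyte markers summed to 1537 to 1861 CPM in wild type and 1301 to 1447 in *Meioc*-null. The differentiating markers summed to 886 to 974 and 857 to 883 there, and the pachytene markers overlapped. *Stra8* stood at 407 and 391 in wild type and at 740 and 584 in *Meioc*-null in cluster 6. In cluster 7 the 7 markers of differentiating spermatogonia summed to 768 to 814 CPM in wild type and 821 to 838 in *Meioc*-null, and the 8 pachytene markers to 139.8 to 199 and 139 to 146. In cluster 8 the sums were 305 to 365 and 540.5 to 541 for the differentiating markers, and 323 to 342 and 238 to 246 for the pachytene markers. In cluster 9 they were 221 to 238 and 809 to 932 for the differentiating markers, and 761 to 878 and 280.4 to 293 for the pachytene markers, with *Ccna1* at 0 in all 4 libraries. *Stra8* itself stood at 15.1 and 16.9 in wild type and at 518 and 481 in *Meioc*-null in cluster 9. The early spermatocyte markers were higher in *Meioc*-null, at 4876 to 5099 against 5777 to 6020 in cluster 8 and 4662 to 5252 against 5513 to 6112 in cluster 9. The part of stage, or of states found only in *Meioc*-null, in the differences between genotypes was not tested.

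Of the PBAF-specific members, *Pbrm1* was higher in *Meioc*-null in all 3 clusters. In cluster 7 it stood at 267 and 269 in wild type and at 430.4 and 411 in *Meioc*-null, 1.52-fold higher in the latter (log2 fold change -0.60, SE 0.11, edgeR adjusted p = 0.00018). In cluster 8 the values were 298 and 299.9 against 425 and 454 (-0.52, SE 0.11, edgeR adjusted p = 0.000973), and in cluster 9 they were 327 and 323 against 457 and 507 (-0.51, SE 0.12, edgeR adjusted p = 0.000686). All 6 of these *Meioc*-null values lay above the highest wild-type value of any germ-cell cluster, 351. These are levels over whole clusters, and wild-type cells at narrower stages within a cluster were not compared.

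*Phf10* was higher in *Meioc*-null in clusters 8 and 9. In cluster 7 it stood at 83.2 and 85.2 in wild type against 107 and 95.7 in *Meioc*-null and was not called (edgeR adjusted p = 0.145). In cluster 8 it stood at 68.7 and 67.1 against 102 and 109, 1.52-fold higher in *Meioc*-null (-0.60, SE 0.12, edgeR adjusted p = 0.000484), and in cluster 9 at 95.3 and 96.1 against 147 and 141, 1.44-fold higher (-0.53, SE 0.10, edgeR adjusted p = 5.35e-05). These values stayed below those of wild-type cluster 10.

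*Brd7* and *Arid2* went the other way. *Brd7* stood at 274 and 305 in wild type and at 233 and 229.9 in *Meioc*-null in cluster 8 (0.36, SE 0.11, edgeR adjusted p = 0.0109), and at 315 and 315 against 252 and 264 in cluster 9 (0.35, SE 0.11, edgeR adjusted p = 0.00634). Without wild type replicate 2 the call of *Brd7* was lost in both clusters (edgeR adjusted p = 0.164 in cluster 8 and 0.0535 in cluster 9), and likewise without *Meioc*-null replicate 1 (0.0538 and 0.0825).

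*Arid2* showed the greatest difference of any member. In clusters 7 and 8 it was not called, although the libraries of cluster 8 did not overlap, at 108 and 109 in wild type against 104 and 90.02 in *Meioc*-null in cluster 8 (0.20, SE 0.11, edgeR adjusted p = 0.16). In cluster 9 it stood at 185 and 194 in wild type and at 57.0 and 57.1 in *Meioc*-null, 3.47-fold higher in wild type (1.79, SE 0.10, edgeR adjusted p = 3.77e-12). *Arid2* was seen in 84.1% of wild-type and 52.8% of *Meioc*-null cells of cluster 9. The level of *Meioc*-null cells in cluster 9 lay below their own level in clusters 7 and 8, and between wild-type clusters 6 and 7.

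Of the BAF-specific subunits, *Arid1a* stood at 88.4 and 65.4 in wild type and at 153 and 127 in *Meioc*-null in cluster 8, 1.8-fold higher in the latter (-0.85, SE 0.13, edgeR adjusted p = 5.89e-05). In cluster 9 it stood at 114 and 106 against 117 and 116 and was not called (edgeR adjusted p = 0.822). The wild-type dip of *Arid1a* in cluster 8 was thus not seen in *Meioc*-null cells, whose values in clusters 7 and 8 overlapped. Those *Meioc*-null values lay above the highest wild-type value of any germ-cell cluster, 126, although *Arid1a* was not called in cluster 7.

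*Arid1b* stood at 15.0 and 16.9 in wild type and at 29.6 and 22.4 in *Meioc*-null in cluster 9 (-0.60, SE 0.19, edgeR adjusted p = 0.00807). It passed the limit on detection there only through *Meioc*-null, so its direction was favoured by the limit, with a UMI in 28.7% of those cells and 17.7% of wild-type cells, and the call was lost without *Meioc*-null replicate 1 (edgeR adjusted p = 0.103). It was under the limit in clusters 3, 7 and 8, as *Arid2* was in clusters 3 and 4. In cluster 8 its levels were 3.90 and 2.11 in wild type against 10.4 and 8.16 in *Meioc*-null.

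*Smarca4* differed in opposite directions in consecutive clusters. It stood at 377 and 366 in wild type and at 297 and 291 in *Meioc*-null in cluster 8 (0.37, SE 0.11, edgeR adjusted p = 0.00805), and at 228 and 201 against 268 and 265 in cluster 9 (-0.26, SE 0.10, edgeR adjusted p = 0.0293). With at least 14 germ-cell clusters the difference was 0.12 (edgeR adjusted p = 0.412) in the best match of cluster 8, which held 53.4% of its wild-type cells. Without wild type replicate 2 neither was called (edgeR adjusted p = 0.0504 in cluster 8 and 0.244 in cluster 9). The call in cluster 9 was also lost without either *Meioc*-null library (0.0562 without replicate 1, 0.141 without replicate 2) and with DESeq2 (adjusted p = 0.0824). *Smarca2* was under the limit on detection in clusters 5 to 9. With the limit at 10% of cells it was tested in cluster 9, at 4.62 and 4.67 in wild type against 13.2 and 6.00 in *Meioc*-null (-0.89, SE 0.33, edgeR adjusted p = 0.0213). It passed that limit through *Meioc*-null only, with a UMI in 12.6% of those cells and 6.23% of wild-type cells, and *Meioc*-null replicate 1 was the higher of the 2 libraries.

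The core subunit *Smarcb1* differed in opposite directions in clusters 7 and 9. In cluster 7 it stood at 36.1 and 31.2 in wild type and at 51.5 and 47.1 in *Meioc*-null, 1.42-fold higher in the latter (-0.50, SE 0.13, edgeR adjusted p = 0.00528). In cluster 8 the genotypes overlapped, at 23.4 and 28.3 against 26.2 and 26.4. In cluster 9 it stood at 92.0 and 76.3 in wild type against 48.9 and 43.5 in *Meioc*-null, 1.90-fold higher in wild type (0.92, SE 0.12, edgeR adjusted p = 1.18e-06). The decline into cluster 8 was therefore seen in both genotypes, and the return in cluster 9 was smaller in *Meioc*-null. The call in cluster 7 was lost without wild type replicate 2 (edgeR adjusted p = 0.0547) and with at least 14 clusters (-0.29, edgeR adjusted p = 0.0911).

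*Smarcd1* was higher in wild type. In cluster 7 it stood at 122 and 142 in wild type against 108 and 119 in *Meioc*-null (0.27, SE 0.11, edgeR adjusted p = 0.0899), and it was called there with the littermate pair as a block (edgeR adjusted p = 0.0134). In cluster 8 the values were 87.7 and 110.1 against 77.0 and 78.9 (0.39, SE 0.13, edgeR adjusted p = 0.0197), and in cluster 9 they were 104 and 116 against 78.5 and 82.4 (0.52, SE 0.11, edgeR adjusted p = 0.000324). The *Meioc*-null values in clusters 8 and 9 lay below every wild-type value of any germ-cell cluster, the lowest of which was 87.7. The call in cluster 8 was lost without wild type replicate 2 (0.18, edgeR adjusted p = 0.395), without *Meioc*-null replicate 1 (0.101) and with DESeq2 (adjusted p = 0.0542).

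The other SWI/SNF subunits, 18 genes for further core, accessory and non-canonical BAF subunits, were tested in the same way. In clusters 7, 8 and 9, 3 of 11, 7 of 8 and 6 of 10 tested were called, beside 26.1%, 47.6% and 66.4% of all genes. Of these calls 1, 4 and 5 were higher in wild type, beside 10.4%, 22.1% and 32.8% of all genes. *Smarcc2*, a core scaffold of the BAF155 and BAF170 pair, was called in clusters 8 and 9. It stood at 11.7 and 15.2 in wild type against 32.6 and 22.9 in *Meioc*-null in cluster 8 (-0.96, SE 0.21, edgeR adjusted p = 0.00114), but at 43.5 and 47.8 against 16.1 and 16.8 in cluster 9 (1.53, SE 0.16, edgeR adjusted p = 4.05e-08). *Smarcc2* passed the limit on detection through 1 genotype each time, the one in which it was higher, with a UMI in 12.0% of wild-type and 25.3% of *Meioc*-null cells in cluster 8 and in 43.3% and 21.3% in cluster 9. Its partner *Smarcc1* was called at -0.28 in cluster 7 (edgeR adjusted p = 0.0419) and -0.26 in cluster 8 (0.0463). In wild type *Smarcc2* had, like *Smarcb1*, a dip in cluster 8 below clusters 7 and 9.

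*Brd9*, which marks non-canonical BAF, stood at 75.3 and 74.4 in wild type against 40.2 and 40.9 in *Meioc*-null in cluster 8 (0.92, SE 0.14, edgeR adjusted p = 2.43e-05). *Actl6a*, the actin-related subunit, stood at 118 and 117 against 67.0 and 72.5 (0.78, SE 0.12, edgeR adjusted p = 2.49e-05). *Bcl7c*, an accessory subunit, stood at 22.7 and 18.2 against 40.4 and 32.2 and was higher in *Meioc*-null (-0.81, SE 0.18, edgeR adjusted p = 0.00115), but it passed the limit on detection through *Meioc*-null only (33.4% of cells, 16.6% in wild type). All 3 kept their direction in cluster 9, at 0.45, 0.68 and -0.77. In cluster 8 the actin-related and BRD9 transcripts thus differed in the same direction as the called members *Brd7*, *Smarca4* and *Smarcd1*. The called members *Pbrm1*, *Phf10* and *Arid1a* went the other way there.

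**Figure D5:**
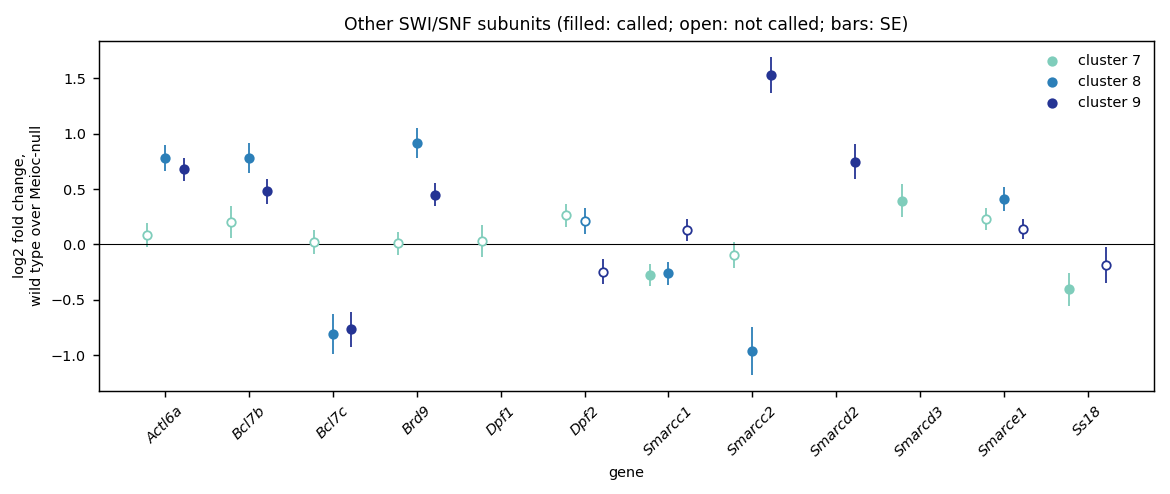
Log2 fold change of wild type over *Meioc*-null (vertical axis, bars give the SE) for the 12 other SWI/SNF subunits tested in clusters 7, 8 or 9. Filled points were called. *Smarcc2* lies at -0.96 in cluster 8 and 1.53 in cluster 9, and *Bcl7c* lies below 0 where *Actl6a*, *Bcl7b* and *Brd9* lie above it.

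For the ATPases of other remodeller families (CHD, ISWI, INO80 and related, 17 genes), the calls in clusters 7, 8 and 9 were 2 of 15, 10 of 14 and 11 of 14 tested, of which 0, 4 and 4 were higher in wild type, beside the same shares of all genes (26.1%, 47.6% and 66.4% called, and 10.4%, 22.1% and 32.8% higher in wild type). Those with the greatest change were higher in *Meioc*-null in the cluster where they were chosen. *Atrx*, which deposits histone H3.3 in heterochromatin with DAXX, stood at 33.6 and 45.5 in wild type against 156 and 143 in *Meioc*-null in cluster 9 (-1.82, SE 0.13, edgeR adjusted p = 6.71e-09). *Chd9* stood at 24.6 and 25.5 against 80.6 and 71.05 in cluster 8 (-1.55, SE 0.15, edgeR adjusted p = 8.64e-08). *Hells*, needed for DNA methylation of repeats, stood at 223 and 293 against 525 and 577 in cluster 9 (-1.03, SE 0.14, edgeR adjusted p = 7e-06) but was higher in wild type in cluster 8 (0.53, SE 0.17, edgeR adjusted p = 0.0135). *Chd1*, a remodeller of active genes, stood at 13.2 and 15.3 against 30.4 and 29.9 in cluster 8 (-1.03, SE 0.19, edgeR adjusted p = 0.000223). *Chd9* and *Chd1* passed the limit on detection in cluster 8 through *Meioc*-null only, with a UMI in 52.4% and 27.0% of those cells and in 21.2% and 11.6% of wild-type cells.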

How the data were processed

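Groups and replicate numbers were taken from the sample labels, in which the batches are littermate pairs with the same numbers. Libraries were made by the authors with the 10x Genomics Chromium 3′ v3.1 kit, and the authors counted reads with Cell Ranger 4.0.0 against mm10 (GRCm38), and deposited raw UMI counts per gene and barcode with no normalization. Depth was 158291903, 190455307, 164925883 and 183606620 UMIs (wild type replicates 1 and 2, *Meioc*-null replicates 1 and 2). Barcodes with more than 1000 detected genes and less than 10% mitochondrial UMIs were kept (6334, 8494, 7550 and 7214), and doublets were removed by Scrublet score in scanpy 1.11.5 at 0.8% per 1000 barcodes (690, 989, 996 and 692). Wild-type cells were clustered (2000 variable genes, 30 principal components, leidenalg 0.10.2) without the 139 genes of the member, comparison and cell cycle lists. Germ cells took the lowest resolution with at least 10 clusters. Clustered wild-type cells kept their own cluster, and all other cells took the main cluster of their 30 nearest wild-type cells, with no limit on distance. The study describes a cluster made up of *Meioc*-null spermatocytes, mostly in G2/M. No such cluster could form here, and those cells were placed among clusters built from wild type. A cluster was named from marker lists where 3 or more markers had a UMI in at least 25% of cells. A shallow cluster with germ-cell markers and a cluster of 16 cells stayed unnamed and were left out.

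UMIs were summed per library and cluster and tested with edgeR 4.0.16 (TMM, robust quasi-likelihood fit, genotype only) where every library had at least 50 cells, over genes detected in 25% or more of the cells of 1 genotype or both, with Benjamini-Hochberg adjustment within the cluster. The difference of a genotype effect from that in cluster 1 was tested as an interaction with animal as a block. The pipeline was tested on simulated counts. Deviations of same-numbered libraries correlated at 0.40 to 0.66 in germ-cell clusters and at 0.18 to 0.25 in somatic types, so the labelled pairs were taken as real, and a fit with the pair as a block was an alternative. DESeq2 1.42.0, other filters, clusterings and left-out libraries were the other alternatives. With 2 animals per genotype, p-values rest on little replication. All 10 members are named, together with up to 4 called genes of each other list with the greatest change in the same direction in both batches. *Smarcc1*, *Bcl7b* and the values of named genes in further clusters were chosen after their values were seen. Members and lists were chosen with earlier results of these data known. Coordinates are from GENCODE vM21 and promoters from RefSeq (GRCm38.p6).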

Additional observations from a re-analysis of the deposited data

Results flagged for a closer look

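The effect of genotype on a member differed between a later germ-cell cluster and cluster 1 in 18 instances, by an interaction term in edgeR with the animal as a block (adjusted p under 0.05). The values are differences of log2 fold changes (wild type over *Meioc*-null), and the same term was called for 4.96%, 23.8%, 35.8% and 57.2% of all genes in clusters 6 to 9. The clusters share animals. Some stage markers also differed between genotypes in clusters 6 to 9, as given with the results.

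Among the PBAF-specific members, *Pbrm1* differed from its effect in cluster 1 by -0.31 in cluster 6 (SE 0.08, edgeR adjusted p = 0.0097), -0.47 in cluster 7 (SE 0.08, 0.00101), -0.37 in cluster 8 (SE 0.12, 0.0217) and -0.34 in cluster 9 (SE 0.11, 0.00393). *Arid2* differed by 1.90 in cluster 9 (SE 0.14, edgeR adjusted p = 2.49e-26). *Brd7* differed by 0.49 in cluster 8 (SE 0.12, edgeR adjusted p = 0.00431) and by 0.49 in cluster 9 (SE 0.11, 4.17e-05). *Phf10* differed by -0.32 in cluster 9 (SE 0.13, edgeR adjusted p = 0.0269).

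Among the BAF-specific members, *Arid1a* differed by -0.70 in cluster 8 (SE 0.13, edgeR adjusted p = 0.000312). *Arid1b* differed by -1.67 in cluster 8 (SE 0.37, edgeR adjusted p = 0.00165), where it was under the limit on detection and had 16 and 18 UMIs in wild type against 79 and 74 in *Meioc*-null, entering this fit through cluster 1, and by -0.57 in cluster 9 (SE 0.22, 0.0221). Of the ATPases, *Smarca4* differed by 0.50 in cluster 8 (SE 0.13, edgeR adjusted p = 0.00691) and *Smarca2* by -0.75 in cluster 9 (SE 0.28, 0.0154), where it was under the limit on detection. Of the core members, *Smarcb1* differed by -0.56 in cluster 7 (SE 0.11, edgeR adjusted p = 0.00203) and by 0.90 in cluster 9 (SE 0.13, 2.39e-09). *Smarcd1* differed by 0.25 in cluster 7 (SE 0.09, edgeR adjusted p = 0.0494), 0.37 in cluster 8 (SE 0.12, 0.0204) and 0.53 in cluster 9 (SE 0.12, 8.43e-05).

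Leaving out 1 library ended the call for *Pbrm1* in clusters 6, 8 and 9, *Phf10* and *Smarca2* in cluster 9, *Arid1b* in clusters 8 and 9, *Brd7* and *Smarca4* in cluster 8, and *Smarcd1* in clusters 7 and 8. Without *Meioc*-null replicate 2 the value of *Pbrm1* was -0.19 in cluster 8 and -0.17 in cluster 9, that of *Phf10* was -0.14, and that of *Smarca2* was -1.19. Without *Meioc*-null replicate 1 the values were -0.28 for *Smarca2*, -0.49 for *Phf10*, and 0.32 for *Smarca4* in cluster 8. With the littermate pair as a replicate block in place of the animal, the calls of *Pbrm1* in cluster 6 (edgeR adjusted p = 0.131), *Smarcd1* in cluster 7 (0.114) and *Phf10* in cluster 9 (0.0509) were lost. Detection in 10% of cells in place of 25% also ended the call of *Smarcd1* (0.0581) and that of *Phf10* (0.0534). The calls in *Arid2*, *Smarcb1* and *Arid1a*, that of *Pbrm1* in cluster 7, and those of *Brd7* and *Smarcd1* in cluster 9 held without each library in turn.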

How the results depend on the processing

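Of 192 alternative values for the 16 member calls, 162 kept direction and call, 30 lost the call and 0 reversed. Bonferroni adjustment ran over all genes of all tested germ-cell clusters together, in place of Benjamini-Hochberg within each cluster. It was thus stricter in its set of tests as well as in its method. It left 2 of the 16 (*Arid2* and *Smarcb1* in cluster 9), 1 of 16 calls of other SWI/SNF subunits and 6 of 23 of other remodeller ATPases. With the littermate pair as a block, 1 member was called before cluster 7 (*Pbrm1* in cluster 6) and 17 from cluster 7 on, where *Smarcd1* in cluster 7 was added, and no other member call changed. The same block in place of the animal left 15 of the 17 interaction calls in clusters 7 to 9. Leaving out 1 library gave 0 to 1 member calls before cluster 7, with 1 without *Meioc*-null replicate 2, and 10 to 17 from cluster 7 on, with 10 without wild type replicate 2. It gave 12 to 15 calls of other subunits and 14 to 22 of other ATPases. It left at least 8 of the 17 interaction calls in clusters 7 to 9, with 8 left without wild type replicate 2. An arm left with 1 library was assumed to vary like the other. DESeq2 kept 14 of the 16 calls. A division into at least 14 clusters was chosen after seeing the data, and values were read in the best match of each cluster. The matches held 66.4%, 53.4% and 66.1% of the wild-type cells of clusters 7, 8 and 9. Of the wild-type cells in the match of cluster 8, 57.5% came from cluster 8. For cluster 8, *Smarca4* stood at 0.12 (edgeR adjusted p = 0.412), and *Arid1a*, *Bcl7c* and *Chd9* at -1.31, -1.40 and -1.0. *Smarcb1* stood at -0.29 (0.0911) for cluster 7, and *Phf10* at -1.07 and -0.33 for clusters 8 and 9. With at least 8 clusters, clusters 4 and 5 merged and the wild-type PBAF over BAF ratio of cluster 4 was 7.69 in place of 11.5, against 10.8 to 12.2 without 1 library. The *Smarca4* share in wild-type Sertoli-like cells was 36.3% without doublet removal and 44.1% with a mitochondrial limit of 5%, in place of 31.9%. That limit left under 50 cells in a library for most germ-cell clusters, so germ-cell calls under it were not run. The cause of these changes was not tested. Depth limits *Arid1b* and *Smarca2*, which had few UMIs in germ cells.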
